A study of Homo sapiens with 8 samples.

Results

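Chromosome 20 carried 2230 of the 60628 ATAC-seq peaks (3.68%) called in HepG2 cells fixed with 0.1% FA and cryopreserved. Peaks were chosen by their chromosome from the list of called peaks and so were selected on the signal at their summit, and their number, fold and width are described without a test. The study prepared 8 bulk libraries of wild-type HepG2, fixed with 0.1, 0.5, 1 or 5% formaldehyde (FA) and then cryopreserved or flash-frozen, to ask how FA fixation and freezing affect accessibility data. The peak list of the cryopreserved library with 0.1% FA was analysed here, and the other 7 libraries were not. HepG2 is a human liver tumour line with an aneuploid karyotype, given as hepatocellular carcinoma in the labels and as hepatoblastoma in the paper, so it stands for hepatocytes only in part. Since 1 library was analysed, no value carries an error between replicates. The ranges given after a value are 95% intervals. For shares, densities and their ratios they cover counting error only. For medians they cover the sampling of peaks within this library, with peaks taken as independent, and peaks are not replicates of a chromosome.

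ATAC-seq uses the Tn5 transposase, which inserts sequencing adapters into accessible DNA, so that fragments pile up over active promoters, enhancers and insulator sites. Chromosome 20 is a small metacentric chromosome. Its long arm, 20q, carries HNF4A, a master regulator of hepatocyte genes, and its short arm, 20p, carries FOXA2, a pioneer factor that opens chromatin in liver and other endodermal tissues. The long arm also holds CEBPB, a factor of the acute-phase response, and the imprinted GNAS locus, and it is a frequent site of copy number gain in epithelial tumours. Hepatocyte identity was checked on a list of markers from all chromosomes. All 12 hepatocyte markers had a peak at their transcription start site (TSS), among them APOA1, SERPINA1 and TTR, whereas 0 of 6 blood, 0 of 3 endothelial and 0 of 3 fibroblast and stellate markers had one. Among 3 neuronal markers, SYP had a TSS peak.

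Sequences of the peaks on which the description turns are shown as the 101 bases centred on the summit, on the plus strand of hg38, with letters in capitals where a motif searched here matched. The first pair are the strongest peaks at a TSS, just upstream of TASP1 (chr20:13638946-13639046) and ZSWIM1 (chr20:45881102-45881202).
TASP1: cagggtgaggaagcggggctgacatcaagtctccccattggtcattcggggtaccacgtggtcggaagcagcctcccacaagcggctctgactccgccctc
ZSWIM1: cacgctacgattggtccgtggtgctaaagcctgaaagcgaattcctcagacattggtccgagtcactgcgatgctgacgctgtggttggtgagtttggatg
Next come the strongest peaks elsewhere, in introns of PTPRA (chr20:2947585-2947685) and NCOA3 (chr20:47576721-47576821, with an NFY match in capitals).
PTPRA intron: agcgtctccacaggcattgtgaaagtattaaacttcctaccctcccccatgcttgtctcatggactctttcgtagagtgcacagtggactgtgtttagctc
NCOA3 intron: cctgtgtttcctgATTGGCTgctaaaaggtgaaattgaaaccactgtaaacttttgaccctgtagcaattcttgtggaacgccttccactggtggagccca
An intronic peak of HNF4A with a FOXA match at its summit (chr20:44370771-44370871) and the distal peak with the most fragments, near ID1 and with an AP-1 match (chr20:31610699-31610799), follow.
HNF4A intron: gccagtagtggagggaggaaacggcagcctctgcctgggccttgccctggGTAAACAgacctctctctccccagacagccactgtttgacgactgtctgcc
Near ID1: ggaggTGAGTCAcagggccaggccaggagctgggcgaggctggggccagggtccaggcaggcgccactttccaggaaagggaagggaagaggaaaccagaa
The last pair are weak peaks beside the centromere (chr20:27213037-27213137 and chr20:27991679-27991779), where capitals mark the 58 bases that both windows share.
Centromeric, first: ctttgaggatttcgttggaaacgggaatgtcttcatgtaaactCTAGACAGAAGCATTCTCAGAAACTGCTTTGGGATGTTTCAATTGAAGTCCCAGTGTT
Centromeric, second: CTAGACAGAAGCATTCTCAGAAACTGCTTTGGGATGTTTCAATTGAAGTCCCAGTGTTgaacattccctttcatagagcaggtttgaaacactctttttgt

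Chromosome 20 was densely populated with peaks relative to its gene content. It had 34.9 peaks per sequenced Mb (33.4 to 36.4), against 44.4 on chromosome 19, 15.8 on chromosome 21, 34.4 on chromosome 22 and 20.3 on all the other chromosomes together, which ranked it 3 of 24. Chromosome 19, the most gene-rich human chromosome, holds 25.3 protein-coding genes per Mb, and chromosome 20 holds 8.54. There were thus 4.08 peaks per protein-coding gene on chromosome 20, against 1.76 on chromosome 19, 2.89 on chromosome 21, 3.02 on chromosome 22 and 2.99 on the other chromosomes together.

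Most peaks of chromosome 20 lay away from promoters. Peaks were counted at a TSS if any base fell within 1000 bp of the canonical TSS of a GENCODE 44 gene, coding or not, and as elsewhere if not. Peaks elsewhere reached 26.6 per Mb on chromosome 20, against 25.5 on chromosome 19, a ratio of 1.04 (0.973 to 1.12), whose interval includes 1. The same ratio was 2.25 (2.03 to 2.50) over chromosome 21, 1.11 (1.02 to 1.20) over chromosome 22 and 1.84 (1.75 to 1.93) over the other chromosomes together. Per protein-coding gene there were 3.12 peaks elsewhere on chromosome 20, rank 3 of 24, after 3.35 on chromosome 2 and 3.33 on chromosome 18. Peaks at a TSS numbered 8.24 per Mb on chromosome 20, against 18.8, 4.02 and 10.4 on chromosomes 19, 21 and 22. The 527 peaks at a TSS therefore made up only 23.6% of chromosome 20 peaks (21.9 to 25.5%), against 42.5% on chromosome 19, 25.4% on chromosome 21, 30.2% on chromosome 22 and 28.51% on the other chromosomes together. With this share chromosome 20 ranked 22 of 24. Of all chromosome 20 summits, 36.4% lay in an intron of a protein-coding gene outside these windows, against 35.0% on the other chromosomes together. Between genes lay 28.9%, against 17.1% on chromosome 19 and 22.9% on the other chromosomes together. Coding exons held 27 peaks (1.21%), against 1.45% on the other chromosomes together. Of the 2230 peaks, 368 (16.5%) were more than 100 kb from the nearest protein-coding TSS, against 1.31% on chromosome 19, 20.5% on chromosome 21, 10.2% on chromosome 22 and 17.1% on the other chromosomes together.

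With the centromere taken at 28000000, the long arm was the denser of the arms. The 1400 peaks of 20q gave 38.8 per Mb (36.8 to 40.9) and the 830 peaks of 20p gave 29.8 per Mb (27.8 to 31.9), a ratio of 1.30 (1.20 to 1.42). The ratio was 1.48 (1.23 to 1.78) for peaks at a TSS and 1.26 (1.14 to 1.39) for peaks elsewhere. Protein-coding genes were also denser on 20q, 9.98 per Mb against 6.67 per Mb on 20p, a ratio of 1.50. Counted per protein-coding gene the order of the arms turned, with 3.89 peaks on 20q and 4.46 on 20p. On chromosome 19, with its centromere taken at 26000000, the long arm had 0.876 times the density of the short arm (0.811 to 0.947). The intervals of peak height overlapped between the arms. The median fold enrichment at a TSS was 15.4 on 20q (14.1 to 16.5) and 15.7 on 20p (13.6 to 18.3), and elsewhere it was 10.4 on both. Peaks elsewhere had a higher GC content on 20q, with a median of 53.2%, than on 20p, with a median of 48.3%.

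**Figure D1:**
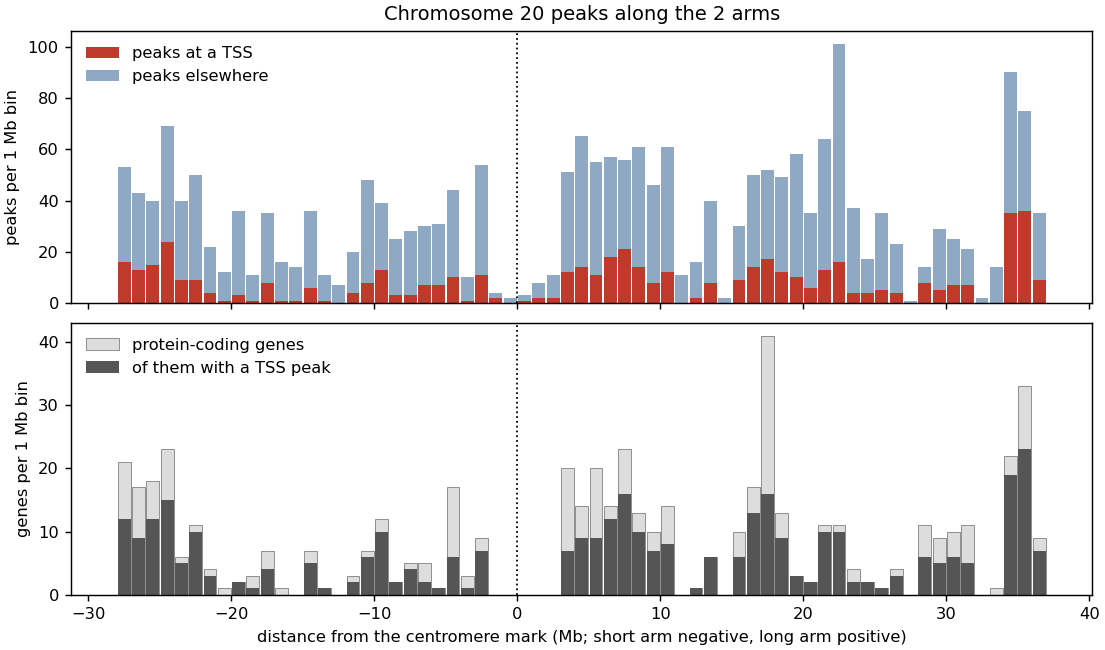
Peaks of chromosome 20 in bins of 1 Mb (top, stacked bars for peaks at a TSS and elsewhere) and protein-coding genes in the same bins (bottom, all genes in light grey and those with a TSS peak in dark grey), by distance from the centromere mark in Mb, with the short arm negative. The tallest bar on the long arm holds 101 peaks over 11 genes, and the bars beside the mark hold 2 to 4 peaks and no gene.

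Along both arms, peaks were numerous where genes were. Correlations were taken over the 62 bins of 1 Mb with more than 0.9 Mb of sequence, whose counts shared 1 library and 1 chromosome. The number of peaks elsewhere correlated with the number of protein-coding genes with a Pearson r of 0.574 and a Spearman rho of 0.757. For peaks at a TSS the values were 0.855 and 0.925. These peaks were defined by lying near gene starts, so their correlation with gene number was in part fixed by definition. The bin with the most peaks was 50 to 51 Mb on 20q, around CEBPB and PTPN1, with 101 peaks of which 85 lay elsewhere. It was followed by 62 to 63 Mb with 90 peaks, around OSBPL2 and LAMA5, and 63 to 64 Mb with 75 peaks, around STMN3 and RTEL1. On 20p the bins with the most peaks were 3 to 4 Mb with 69, around CDC25B and PANK2, 25 to 26 Mb with 54 and 0 to 1 Mb with 53. These are counts per bin, and the bins at the ends hold less sequence, 0.939 Mb in the first bin of 20p and 0.334 Mb in the last bin of 20q, where 35 peaks stood. The bin around CEBPB held no more than 11 protein-coding genes, of which 10 had a TSS peak, whereas the bin at 63 to 64 Mb held 33 genes, of which 23 had one. Between the end of CEBPB and the start of PTPN1, a phosphatase that acts on the insulin receptor, 43 peaks stood in 318 kb, 40 of them elsewhere. Their median fold was 11.03, the strongest distal one reached 32.6 (chr20:50243124-50243410), and 5 of the 43 had a fold of at least 20.

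Long stretches without a peak also stood out. The longest ran for 1184 kb from 42206837 to 43390437 on 20q, where the only protein-coding TSS is that of PTPRT, a receptor phosphatase of the nervous system. A stretch of 993 kb from 60127282 and one of 790 kb from 54681088, also on 20q, held no protein-coding TSS. The bin at 55 to 56 Mb held 1 peak, and the bins at 27 to 28, 42 to 43 and 60 to 61 Mb held 2 each.

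Around the centromere the peaks were few, and their summit sequences had many copies. Between 26.5 and 28.5 Mb there were 5 peaks, with 5 to 11 fragments at the summit and folds of 5.10 to 10.2. For all 5, the 50 bases at the summit occurred between 331 and 6195 times in hg38. The pair of windows printed above, 778 kb apart, shared a run of 58 identical bases. Human centromeres are built of alpha satellite repeats, and a fragment from such a repeat can match several of its copies. The methods name uniquely mapped pairs, and how the pairs of these peaks were placed was not examined. Along the whole chromosome, 44 peaks (1.97%) had a summit sequence that occurred more than once, against 1.94% on the other chromosomes together. The first peak on 20q with a unique summit was strong, with a fold of 28.7 and 99 fragments (chr20:28602705-28603075), at the TSS of a noncoding gene.

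Peaks at a TSS were taller and wider than peaks elsewhere. Fold enrichment relates the fragments piled up at a summit to the local background, each with 1 added, as reported by the caller. Its median on chromosome 20 was 11.2 (10.9 to 11.6), with a range of 3.79 to 41.8. The median fold was 15.4 at a TSS (14.3 to 16.5), against 10.4 elsewhere (10.1 to 10.8), and the ratio of these medians was 1.48. The widths had medians of 237 bp (227 to 253) at a TSS and 158 bp (154 to 163) elsewhere, with a range of 104 to 744 bp. Width and fold were related across peaks (Spearman rho 0.652 over 2230 peaks of 1 library), and the peaks at a TSS were the wider ones. Among the narrowest of 5 equal classes of width, 9.42% of peaks lay at a TSS, and among the widest 49.1% did. Within the classes, from narrow to wide, the ratio of the median fold at a TSS over elsewhere was 1.04, 0.863, 0.989, 1.21 and 1.26. The fold difference between peaks at a TSS and elsewhere was thus seen in the classes of 199 bp and above and not in the narrower ones.

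**Figure D2:**
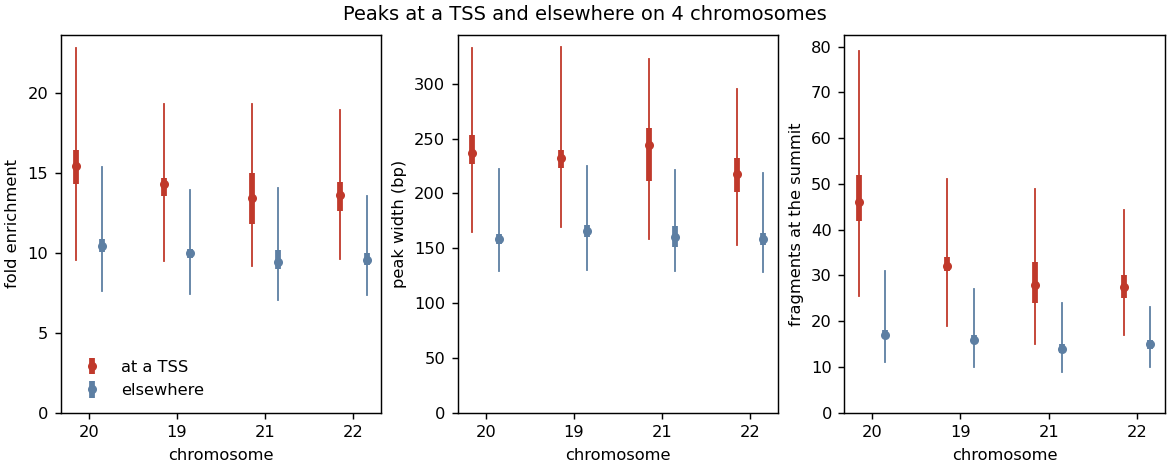
Fold enrichment, width in bp and fragments at the summit of peaks at a TSS (red) and elsewhere (blue) on chromosomes 20, 19, 21 and 22. Points are medians, thick bars their 95% intervals over peaks and thin lines the quartiles; the median number of fragments at a TSS was 46 on chromosome 20, against 32, 28 and 27.5 on chromosomes 19, 21 and 22.

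Peaks at a TSS were also taller and wider than peaks elsewhere on the chromosomes set beside it. There the median fold of each class was lower than on chromosome 20. Over all peaks, the median fold of 11.2 on chromosome 20 ranked 3 of 24. It was 11.3 on chromosome 19, 10.3 on chromosome 21 and 10.6 on chromosome 22. At a TSS the median fold was 15.4 on chromosome 20, the highest of 24 chromosomes, against 14.3 on chromosome 19, 13.4 on chromosome 21, 13.6 on chromosome 22 and 14.4 on the other chromosomes together. Elsewhere it was 10.4 on chromosome 20, rank 2 of 24, against 9.98, 9.42 and 9.55 on chromosomes 19, 21 and 22 and 9.76 on the others together. At a TSS the interval of chromosome 20 (14.3 to 16.5) overlapped those of chromosomes 19 (13.5 to 14.7), 21 (11.8 to 15.0) and 22 (12.6 to 14.4). It also overlapped that of the other chromosomes together (14.3 to 14.6). Elsewhere the interval of chromosome 20 (10.1 to 10.8) overlapped those of chromosomes 19 (9.65 to 10.2) and 21 (8.97 to 10.2). It lay above those of chromosome 22 (9.23 to 10.0) and the others together (9.71 to 9.84). The ratio of the medians at a TSS over elsewhere differed little, 1.48 on chromosome 20 and 1.43 on each of chromosomes 19, 21 and 22. Median widths were not ordered in this way. At a TSS they were 237 bp on chromosome 20, against 232, 244 and 218 bp on chromosomes 19, 21 and 22, and elsewhere 158 bp on chromosome 20, against 166, 160.5 and 158 bp.

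Tall peaks were more frequent on chromosome 20. A fold of at least 20 was reached by 372 peaks (16.7%), against 13% of the 60474 peaks on chromosomes 1-22, X and Y. Among peaks at a TSS it was reached by 179 of 527 (34.0%), against 26.8% of all such peaks, and among peaks elsewhere by 193 of 1703 (11.3%), against 7.51% of all such peaks. Elsewhere on the chromosomes set beside it the share was 5.90% on chromosome 19, 7.38% on chromosome 21 and 7.12% on chromosome 22. Among peaks with like numbers of fragments at the summit, median folds were close to those of the other chromosomes together. They were 9.99 against 10.2 at 11 to 20 fragments, 14.3 against 14.9 at 21 to 40 and 19.4 against 20.7 at 41 to 80. Above 80 fragments they were 25.0 against 24.8, and at 4 to 10 both were 6.80.

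Peaks at a TSS on chromosome 20 also had more fragments, both at the summits and around them. From the fold and the -log10 p, the number of fragments at the summit and the background around it can be solved, and a whole number was found for every peak. These whole numbers are called fragments here, but the methods do not state whether the caller counted fragments or read ends. At a TSS the median was 46 fragments at the summit (42 to 52), the highest of 24 chromosomes, against 32 on chromosome 19, 28 on chromosome 21, 27.5 on chromosome 22 and 33 on the other chromosomes together. The local background of these peaks had a median of 2.14 fragments on chromosome 20, again the highest, against 1.32, 1.04 and 1.12 on chromosomes 19, 21 and 22 and 1.34 on the others together. At a TSS, fragments at the summit were thus 1.39 times and the local background 1.60 times those of the other chromosomes together, while the median fold was 1.07 times theirs. Elsewhere the median was 17 fragments on chromosome 20, against 16, 14 and 15 on chromosomes 19, 21 and 22 and 14 on the other chromosomes together. The background elsewhere was 0.595 fragments on chromosome 20, against 0.595, 0.428, 0.501 and 0.407. Over all peaks chromosome 20 had a median of 21 fragments over a background of 0.773, against 22 over 0.859 on chromosome 19. More than 80 fragments were found at 175 summits of chromosome 20 (7.85%), against 2.35%, 1.26% and 1.19% on chromosomes 19, 21 and 22 and 2.97% on the others together. Of the 100 peaks with the most fragments on chromosomes 1-22, X and Y, 20 were on chromosome 20. The number of copies of chromosome 20 in these cells was not measured here, and its part in these values was not tested.

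**Figure D3:**
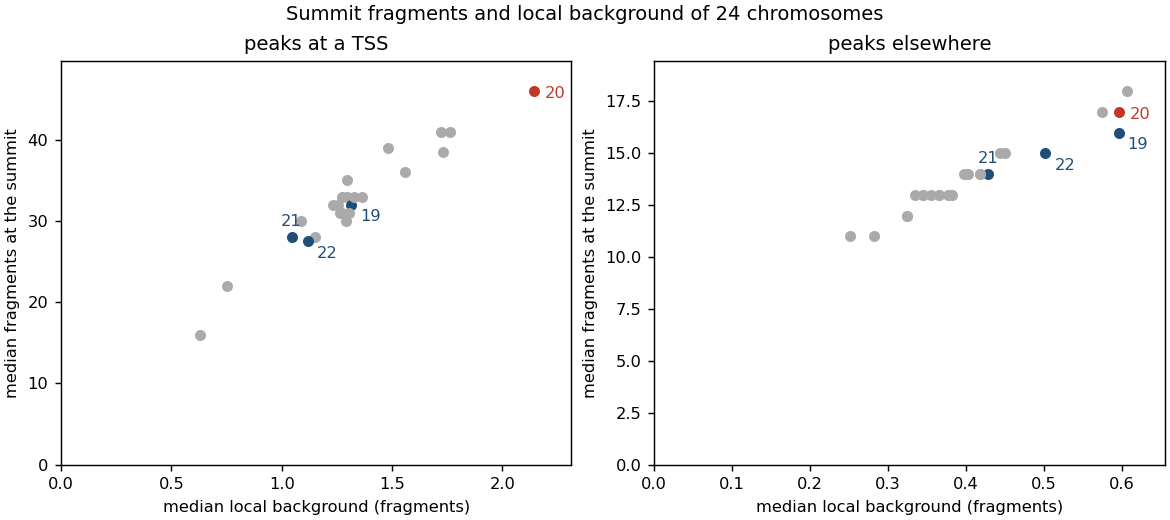
Median fragments at the summit against the median local background, in fragments, for peaks at a TSS (left) and elsewhere (right), with 1 point for each of 24 chromosomes. Chromosome 20 (red) lies at the top right at a TSS, with 46 fragments over a background of 2.14, and chromosomes 19, 21 and 22 (dark blue) lie below it in both panels.

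Of the 546 protein-coding genes of chromosome 20, 353 (64.7%, 60.5 to 68.7%) had a peak at their canonical TSS, against 61.5% of all 20033 protein-coding genes. On chromosomes 19, 21 and 22 the share was 60.6%, 49.1% and 64.2%, and within chromosome 20 it was 64.7% on 20q and 64.5% on 20p. The highest fold over these genes had a median of 20.2, with quartiles of 14.4 and 26.7. For 134 of the 353 genes the peak also overlapped the window of another gene, so it cannot be assigned to 1 of them.

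The strongest promoter peak was that of TASP1, which encodes taspase, a protease that cleaves MLL-family proteins, with a fold of 41.8 and 162 fragments (chr20:13638843-13639146). ZSWIM1 followed with a fold of 40.6 and 151 fragments (chr20:45881026-45881325). RBBP9, a serine hydrolase gene, had 38.4 and SMIM26 had 36.8. The shared promoter of TRMT6, a subunit of a tRNA methyltransferase, and MCM8, a helicase of DNA repair, had 36.7. NAPB, a factor of vesicle fusion, had 35.6, FAM110A had 35.3, and the shared promoter of ACOT8, a peroxisomal thioesterase, and ZSWIM3 had 34.8. ITCH, a ubiquitin ligase, had 34.4, and the shared promoter of DZANK1 and POLR3F, an RNA polymerase III subunit, had 34.3. Of these 10 peaks, 7 lay on 20p, and all were between 234 and 351 bp wide.

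The strongest peaks elsewhere came close to the promoters in height. Their folds ran between 32.8 and 36.1, and they were 203 to 309 bp wide. The first lay in an intron of PTPRA, a receptor phosphatase gene, 74154 bp from its TSS, with a fold of 36.1 and 89 fragments (chr20:2947490-2947791). The second lay in an intron of NCOA3, a coactivator of nuclear receptors, with a fold of 35.5 and 94 fragments (chr20:47576681-47576958). Others were nearest to ZNF337, PYGB, which encodes the brain isoform of glycogen phosphorylase, CHD6, MGME1, TGM2, TOP1 and SIRPB2. The peak whose nearest protein-coding TSS was that of PYGB, 62437 bp away, lay within the neighbouring gene ABHD12. This peak had a fold of 34.6 and 131 fragments, and the peak in TGM2, the transglutaminase gene, had 33.3 and 105.

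The widest peaks were mainly promoters. The widest of all, 744 bp over a TSS of GNAS, had a fold of only 9.04 (chr20:58890884-58891627). PANK2, a kinase of coenzyme A synthesis, had 733 bp with a fold of 27.4, PIGU 726 bp with a fold of 30.3 and RALY 704 bp with a fold of 20.04. The widest elsewhere, 713 bp with a fold of 17.5, lay in an intron 22290 bp from the TSS of BANF2. The summits with the most fragments, 188 at OSBPL2 and 184 at RRBP1, had folds of 26.9 and 22.03 over backgrounds of 6.03 and 7.40 fragments.

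At ID1, an inhibitor of basic helix-loop-helix factors and a target of BMP signalling, folds were low beside the number of fragments at the summit. There were 7 peaks within 10 kb of the gene, with 61 to 152 fragments at the summit and folds of 3.79 to 14.7. The lowest fold of the chromosome, 3.79, was found there over 61 fragments, at a local background of 15.4 fragments. The peak printed above had 152 fragments, the most of any distal peak, over a background of 11.1 and a fold of 12.6. The 5 highest local backgrounds of chromosome 20 all belonged to peaks around ID1, with up to 16.5 fragments.

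At the other end, 429 summits (19.2%) were covered by at most 10 fragments, against 17.0%, 28.8% and 23.1% on chromosomes 19, 21 and 22. The weakest lay in introns of CDH22 (-log10 q 3.01, 4 fragments) and CSE1L (3.02, 6 fragments), at the edge of what the caller reported.

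Genes of chromosome 20 were then described by lists, read beside the 61.5% of all protein-coding genes. All 28 genes of core cell functions had a TSS peak, with a median fold of 24.6 and values of 36.7 at TRMT6, 34.3 at POLR3F, 33.7 at RPN2, a subunit of the oligosaccharyltransferase, and 31.4 at VAPB. All 24 genes of the cell cycle and of the region of 20q amplified in tumours had one, with a median fold of 22.9, among them MCM8, GINS1 (33.0), NCOA3 (32.6) and PTPN1 (30.4). Of 22 genes with liver functions, 16 (72.7%, 49.8 to 89.3%) had one, led by LPIN3 (31.3), a phosphatidate phosphatase, TTPAL (27.8), PANK2 (27.4) and GSS (26.7), the glutathione synthetase gene. PCK1, the rate-limiting enzyme of gluconeogenesis, had a TSS peak with a fold of 20.1. The 6 liver genes without one at the canonical TSS were HAO1, LBP, PLTP, ACSS1, SPTLC3 and PROCR. Genes of glyoxylate and lipid handling and of the acute phase were thus among them. With the TSS of any transcript the share was 81.8%, so some of these 6 had a peak at another annotated start. The list's interval includes the 61.5% of all genes.

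**Figure D4:**
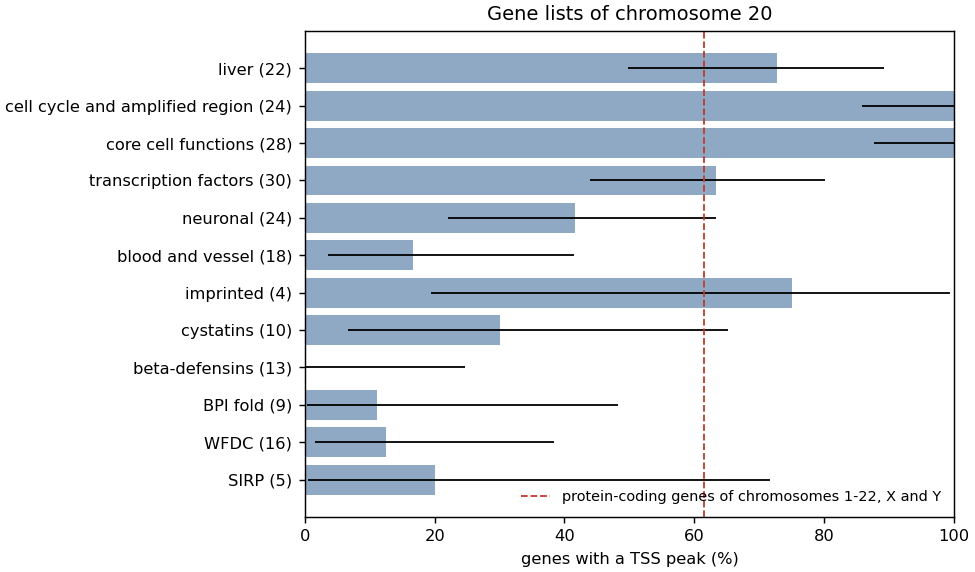
Share of genes with a TSS peak in 12 gene lists of chromosome 20, with the number of genes in parentheses, exact 95% intervals as lines and, dashed, the share over all protein-coding genes (61.5%). Core cell functions and cell cycle genes are at 100%, and beta-defensins are at 0.

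Transcription factor genes were near the background, with 19 of 30 (63.3%). SCRT2 had a fold of 24.4, E2F1, a driver of S phase entry, 23.3, ZNF133 21.6 and MYBL2 21.03. Of 24 neuronal genes, 10 (41.7%, 22.1 to 63.4%) had a TSS peak, and CHGB, the chromogranin B gene of secretory granules, reached 30.8. ADRA1D had 19.9, NRSN2 15.4 and STMN3 11.3. Of 18 genes of blood and vessel cells, 3 (16.7%, 3.58 to 41.4%) had one, namely SAMHD1 (22.8), CD40 (15.2) and ADA (14.8).

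Tandem families of other tissues were mostly without a peak. None of the 13 beta-defensin genes, which encode antimicrobial peptides of epithelia and the epididymis, had a TSS peak (0 to 24.7%). Of 10 cystatin genes, 3 did: CST3, the cystatin C gene that most cells express, with a fold of 22.8, and CST9 (18.9) and CST5 (11.7). BPIFB2 (13.6) did among 9 genes of the BPI fold family. WFDC3 and WFDC10A did among 16 genes of the WFDC cluster, at folds of 33.9 and 8.51, and the WFDC3 peak also lay at the TSS of DNTTIP1. SIRPA (10.3) did among 5 SIRP genes, and its peak also overlapped the TSS window of another annotated gene. The summit sequence of the SIRPA peak occurred 2 times in hg38, and with a window of 500 bp no SIRP gene had a TSS peak. Of 4 imprinted genes, L3MBTL1 (20.2), BLCAP (12.2) and GNAS (9.04) had one and NNAT, which lies within the BLCAP locus, did not.

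HNF4A stood in a series of strong peaks. Within 10 kb of the gene there were 11 peaks, with folds of 6.21 to 30.0. The peak at its canonical TSS had a fold of 18.3 and 65 fragments, and 3478 bp upstream another had 18.97 and 68 fragments. The intronic peak with the FOXA match printed above, 15122 bp into the gene, had 27.4 and 77 fragments (chr20:44370644-44370956). A peak of 580 bp, 38956 bp into the gene and within 1000 bp of the canonical TSS of another annotated gene, had 20.4 and 97 fragments. The strongest was intronic, 55701 bp into the gene, with 30.0 and 113 fragments (chr20:44411254-44411625), and a peak beyond the end of the gene had 25.3 and 93 fragments. The peak at the canonical TSS thus ranked below 6 others of its own locus. This ranking used the canonical start alone, so a peak counted as intronic may lie at another start of the gene. The lowest peak, with a fold of 6.21 and 45515 bp into the gene, was counted as intronic. Within 50 bp of its summit, 26 bases were annotated as untranslated region. Whether it marks another start was not tested.

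The remaining factor genes had lower folds. FOXA2 had 4 peaks, all within 1000 bp of an annotated canonical TSS, with 10.1 and 36 fragments at its canonical TSS and 4.73 to 8.54 at the others. CEBPB had 4, with 9.53 and 59 fragments just upstream of its TSS, 4.12 at the TSS itself, and 11.6 and 72 fragments 1589 bp upstream. The local background at the 3 peaks nearest to CEBPB was between 5.29 and 5.31 fragments, against a median of 2.14 for peaks at a TSS. At GNAS, which encodes the stimulatory G protein alpha subunit, 5 peaks had folds of 5.4 to 10.9, and the highest, 10.9, was intronic and 20966 bp upstream of the canonical TSS. Among the 353 genes with a TSS peak, the fold at HNF4A was higher than at 40.2% of them, at FOXA2 than at 12.7%, at CEBPB than at 10.5% and at GNAS than at 8.78%.

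**Figure D5:**
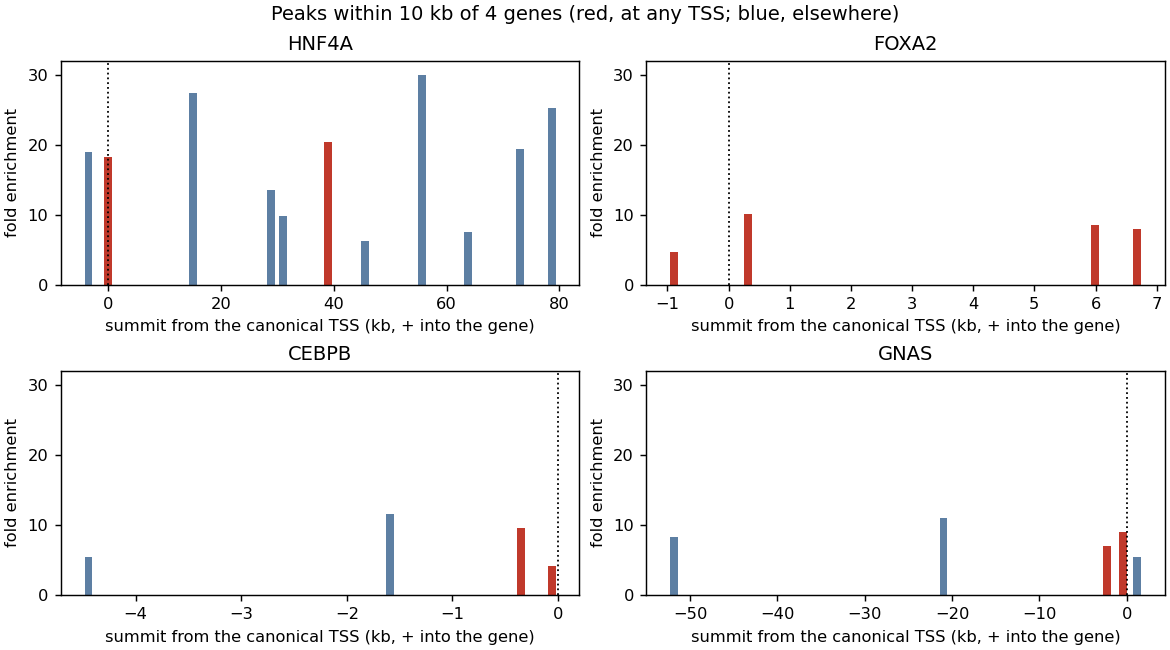
Fold enrichment of each peak within 10 kb of HNF4A, FOXA2, CEBPB and GNAS, by the distance of its summit from the canonical TSS in kb (positive into the gene). Red bars are peaks within 1000 bp of the canonical TSS of any annotated gene. Blue bars are the others, and may lie at starts of other transcripts. HNF4A has 11 peaks of up to 30.0, and no peak of the other 3 genes exceeds 11.6.

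Motif shares differed between the classes of peaks, and each motif was found in a minority of either class. Within 50 bp of the summit on either strand, GGGGCGGGG, the GC box bound by SP and KLF factors, was found in 13.5% of chromosome 20 peaks at a TSS (10.7 to 16.7%) and 0.822% of those elsewhere, beside 13.1% at a TSS and 1.26% elsewhere on the other chromosomes. CCGGAAGT, of the ETS family, was found in 4.36% at a TSS and 0.235% elsewhere, beside 3.73% and 0.235% on the other chromosomes. AGCCAAT, the CCAAT box of NFY, was found in 4.36% and 1.76%, and GCGCATGCG, of NRF1, in 2.28% and 0.294%. The other chromosomes had 5.36% and 1.58% for NFY and 1.71% and 0.0745% for NRF1. Peaks at a TSS on chromosome 20 with an ETS match had a median fold of 21.8 (23 peaks), against 15.3 without one. At a TSS on the other chromosomes the medians were 18.8 with a match (620 peaks) and 14.2 without one.

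The motifs of FOXA and AP-1 were more frequent elsewhere than at a TSS, while for CTCF, HNF4A, HNF1 and CEBP the intervals of the classes overlapped. TGTTTAC, of FOXA factors, was found in 1.90% of peaks at a TSS and 4.70% elsewhere (3.74 to 5.81%), the second beside 6.17% of peaks elsewhere on the other chromosomes. TGANTCA, of AP-1, was found in 2.47% and 6.34%, the CTCF motif in 0.949% and 2.94%, and CAAAGTCCA, of HNF4A, in 0.569% and 1.64%. The other chromosomes had 2.21% and 6.93% for AP-1, 0.596% and 2.93% for CTCF, and 0.506% and 1.77% for HNF4A. Windows 2000 bp to either side of the distal summits held the FOXA motif in 1.09%, AP-1 in 2.35%, CTCF in 0.0294% and HNF4A in 0.0587%. GTTAATNAT, of HNF1, was found in 0.190% at a TSS and 1.12% elsewhere, and TTGCGCAA or TTGCATCA, of CEBP factors, in 0.569% and 0.763%. On the other chromosomes these shares were 0.391% and 1.18% for HNF1 and 0.343% and 0.833% for CEBP. Between the arms, the HNF1 motif was found in 0.569% of peaks elsewhere on 20q and 2.00% on 20p, and the CTCF motif in 2.28% and 4.01%, with overlapping intervals for each. These matches describe the letters at the summits and do not show binding.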

How the data were processed

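Only the peak list of the cryopreserved 0.1% FA library was used. Per the methods, the authors trimmed its reads (cutadapt), aligned them to GRCh38 (Bowtie2) and discarded duplicates. They name uniquely mapped pairs, above a limit of mapping quality. MACS2 was run at its standard parameters without pooling libraries, and the sources used here do not give its version. The deposited score is 10 times the -log10 q, rounded down. The deposited fold is a ratio to the local background, and the −log10 p and −log10 q deposited by the authors belong to the summit, whose position is the last column. Library depth was not used. Because peak names refer to short fragments, the fragments at a summit may be a subset of the library. They were solved as whole numbers under a Poisson upper tail (tolerance 0.005 in −log10 p; 50 chromosome 20 peaks had a second solution), a step tested on simulated data.

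Density was taken over bases of hg38 that are not N. Intervals at 95% are exact binomial (shares, ratios of density), exact Poisson (densities) or from order statistics (medians), and no test was run. The members, lists and motifs were chosen with earlier results of these data known. Genes were named by rule: HNF4A, FOXA2, CEBPB and GNAS; the highest folds of each list (at most 4); members lacking a TSS peak where few do, or having one in lists of other tissues; the 10 highest TSS folds; genes nearest to the 10 strongest and 5 widest peaks; and genes of the bins with the most peaks. ID1, OSBPL2, RRBP1, PCK1, CDH22, CSE1L, the peak nearest to the centromere with a unique summit and the 6 liver genes without a TSS peak were picked once their values were known. The gene nearest to 1 of the strongest peaks is not reported here. Alternatives changed the TSS definition, the −log10 q limit, repeated summits, the length used and the motif window. The software was Python 3.11.15 with pysam 0.24.0, numpy 2.4.6, scipy 1.17.1, pandas 2.3.3 and matplotlib 3.10.9, and samtools 1.23.1.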

Additional observations from a re-analysis of the deposited data

How the results depend on the processing

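With 1 library there is no replicate to leave out, and fragments limit the weak peaks. No paired analysis was possible because 1 library was analysed. Counted per protein-coding gene, the ratio of 20q over 20p reversed, to 0.871, and the density became 4.08 peaks per gene. A window of 500 bp put 19.96% of peaks at a TSS, a window of 2500 bp 30.3% and the TSS of any transcript 30.6%. Those last windows gave 69.8% and 69.4% of genes with a TSS peak. With 2500 bp the ratios at a TSS over elsewhere were 1.29 for fold and 1.39 for width. Among the 1114 peaks with a −log10 q of at least 20, density was 17.4 per Mb, 34.5% lay at a TSS, 55.7% of genes had a TSS peak, the median distal fold was 16.4, and the ratios were 1.15 for fold and 1.30 for width; fewer peaks are left by construction. Over 5 classes of width the median ratio of fold was 1.04. The other 31 of these recomputed values stayed within the interval of the main value. Of 68 recomputed shares of gene lists and motifs, 17 left that interval. The window of 25 bp around the summit lies within that of 50 bp, so no motif share could rise, and every one was lower. The cause of the other changes was not tested.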
